A study of Mus musculus with 9 samples.

Results

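D cyclins, CDK inhibitors and pocket proteins were followed across adipocyte differentiation as 10 genes chosen by name: Ccnd1, Ccnd2, Ccnd3, Cdkn1a, Cdkn1b, Cdkn1c, Cdkn2c, Rb1, Rbl1 and Rbl2. They were found by gene symbol among the 19094 genes listed in at least 1 of 9 samples, and 9 of the 10 passed the filter on low counts, the exception being Cdkn1c. Their NCBI gene IDs in the files are, in this order, 12443, 12444, 12445, 12575, 12576, 12577, 12580, 19645, 19650 and 19651. RNA was sequenced from 3T3-L1, a mouse fibroblast-like preadipocyte line, with 3 replicates at each of 3 times and no genetic change named for any group. Day 0 cells were taken before induction. Day 4 cells had received 2 days of induction medium (dexamethasone, IBMX and insulin) and 2 days of maintenance medium (insulin), and day 8 cells 4 more days of maintenance medium. Day 4 against day 0 is the early phase, day 8 against day 4 the late phase, and day 8 against day 0 the whole process. The whole process shares its samples with both phases, so the 3 comparisons are not independent of one another. Every sample is a mixture of cells of 1 line, and nothing states that the replicates are separate cultures, so the p-values measure the spread between these samples, which may be technical.

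Cyclin D proteins bind and activate CDK4 and CDK6, and these kinases phosphorylate the pocket proteins encoded by Rb1, Rbl1 (p107) and Rbl2 (p130). An unphosphorylated pocket protein holds E2F transcription factors and keeps genes of DNA replication and mitosis low. Cdkn1a (p21), Cdkn1b (p27) and Cdkn1c (p57) encode the CIP/KIP inhibitors, which bind cyclin-CDK complexes, whereas Cdkn2c (p18) encodes an INK4 inhibitor, which binds CDK4 and CDK6 alone. Confluent 3T3-L1 cells are known to re-enter the cell cycle for a short time after hormonal induction and then to leave it as they become adipocytes. No sample was taken during the first days after induction, so the levels reported here lie on either side of that interval. Per the methods of the study, the cells were induced just short of full confluence, and no hold after confluence is described. Whether day 0 cells were still dividing was not tested.

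Levels are FPKM, the authors' count scaled to transcript length and sequencing depth, which can be compared between genes. The test below also uses normalization factors (TMM), at 1.04 to 1.05 for day 0 and 0.95 to 0.97 for day 8 libraries. FPKM is not adjusted by these factors. Between days, FPKM levels, sums and overlaps can therefore show falls that the test does not call. Changes are log2 fold changes ± SE of the expected counts from edgeR's quasi-likelihood test, with p-values adjusted by Benjamini-Hochberg over 13154 tested genes. A gene rose or fell where its adjusted p was under 0.05, and was differentially expressed where its fold change was also above 2. The samples held 18216114 to 20452144 expected counts. In bulk RNA, fewer cells of a type and less RNA per cell cannot be told apart.

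One library stood apart in cell cycle genes. Day 0 replicate 2, the library with the fewest counts, had the highest level of its day in 15 of 15 replication genes and in 15 of 15 mitosis genes of the lists described later, at median ratios of 1.28 and 1.39 to the other day 0 libraries. Over all tested genes day 0 replicate 2 was the highest of its day in 36.5%, beside 37.7% for day 4 replicate 3. It was thus not the most divergent library by that measure. Day 0 replicate 2 was also the highest day 0 library for Ccnd1 and Rbl1. The counts of the 10 genes and of every list below were repeated without it. The adipocyte markers Adipoq, Fabp4, Plin1, Cfd, Lep, Pparg, Cebpa and Cidec were all differentially expressed, 8 of 8 higher at day 4, and their summed FPKM was 28.6 ± 1.53 at day 0, then 5866 ± 1100.3 at day 4 and 7530 ± 301 at day 8 (SD, n = 3), with Fabp4 the most abundant. Within day 4 this sum was 4783, 5832 and 6983, so the day 4 samples differed in it more than the day 8 samples did. Lep, the leptin gene, was at 0 in the day 0 samples and at most 0.98 FPKM. Fibroblast markers were abundant at all times, with Col1a2 the most abundant of 6, and they summed to 4655 ± 132 FPKM at day 0, then 3261 ± 178 at day 4 and 5513 ± 61.2 at day 8. The markers within this list differed. Dlk1, a preadipocyte marker, was at 828 ± 33.6, 181 ± 13.9 and 415 ± 5.57 FPKM, Ly6a (Sca-1) at 167 ± 3.73, 42.7 ± 0.39 and 38.8 ± 1.23 FPKM and Pdgfra, highest at day 4, at 59.6 ± 2.66, 102 ± 6.14 and 65.7 ± 1.41 FPKM. The deposited labels also name dorsal root ganglion tissue in the RNA protocol. Of 8 sensory neuron markers, 6 were under 1 FPKM in every sample, Scn10a was at or near 0, and the list summed to at most 3.17 FPKM, with Avil the most abundant at day 0 and Snap25 at day 4 and day 8 (0.03 ± 0.05, 1.12 ± 0.05 and 1.10 ± 0.05 FPKM at day 0, 4 and 8). The 5 Schwann cell markers summed to at most 7.71 FPKM, with S100b the most abundant. The 5 leukocyte markers summed to at most 2.19 FPKM, mostly Cd68, with Ptprc and Adgre1 at or near 0. The 5 endothelial markers summed to at most 1.08 FPKM, with Vwf the most abundant at day 0 and Pecam1 at day 4 and day 8. The 4 myoblast markers with a value summed to at most 8.72 FPKM, mostly Des. The labels call every sample adipocytes, but at day 0 the adipocyte markers were far lower than later, with only Pparg, Fabp4 and Cebpa above 1 FPKM on average, and the study describes these cells as preadipocytes. The part that the large change in adipocyte markers had in the values of the 10 genes was not tested.

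The genes lay at very different levels. At day 0 the order of the levels by mean FPKM was Cdkn1a (275 ± 8.22, SD, n = 3), Ccnd2 (166 ± 5.39), Ccnd1 (139 ± 12.8), Ccnd3 (102 ± 1.85), Cdkn1b (46.6 ± 2.60), Cdkn2c (20.2 ± 0.82), Rbl2 (12.5 ± 0.09), Rb1 (5.56 ± 0.41), Rbl1 (4.85 ± 0.49) and Cdkn1c (0.01 ± 0.02). Only Rb1 and Rbl1 overlapped as neighbours in that order. At day 4 Ccnd3 stood between Cdkn1a and Ccnd2, and Cdkn2c and Ccnd1 were neighbours whose replicates overlapped. By day 8 the order was Ccnd2, Cdkn1a, Ccnd3, Cdkn2c, Ccnd1, Cdkn1b, Rbl2, Rb1, Rbl1 and Cdkn1c, with no overlap between neighbours. Cdkn2c thus moved from rank 3958 among all listed genes at day 0 to rank 944 at day 8, while Ccnd1 moved from rank 452 to rank 1972.

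**Figure D1:**
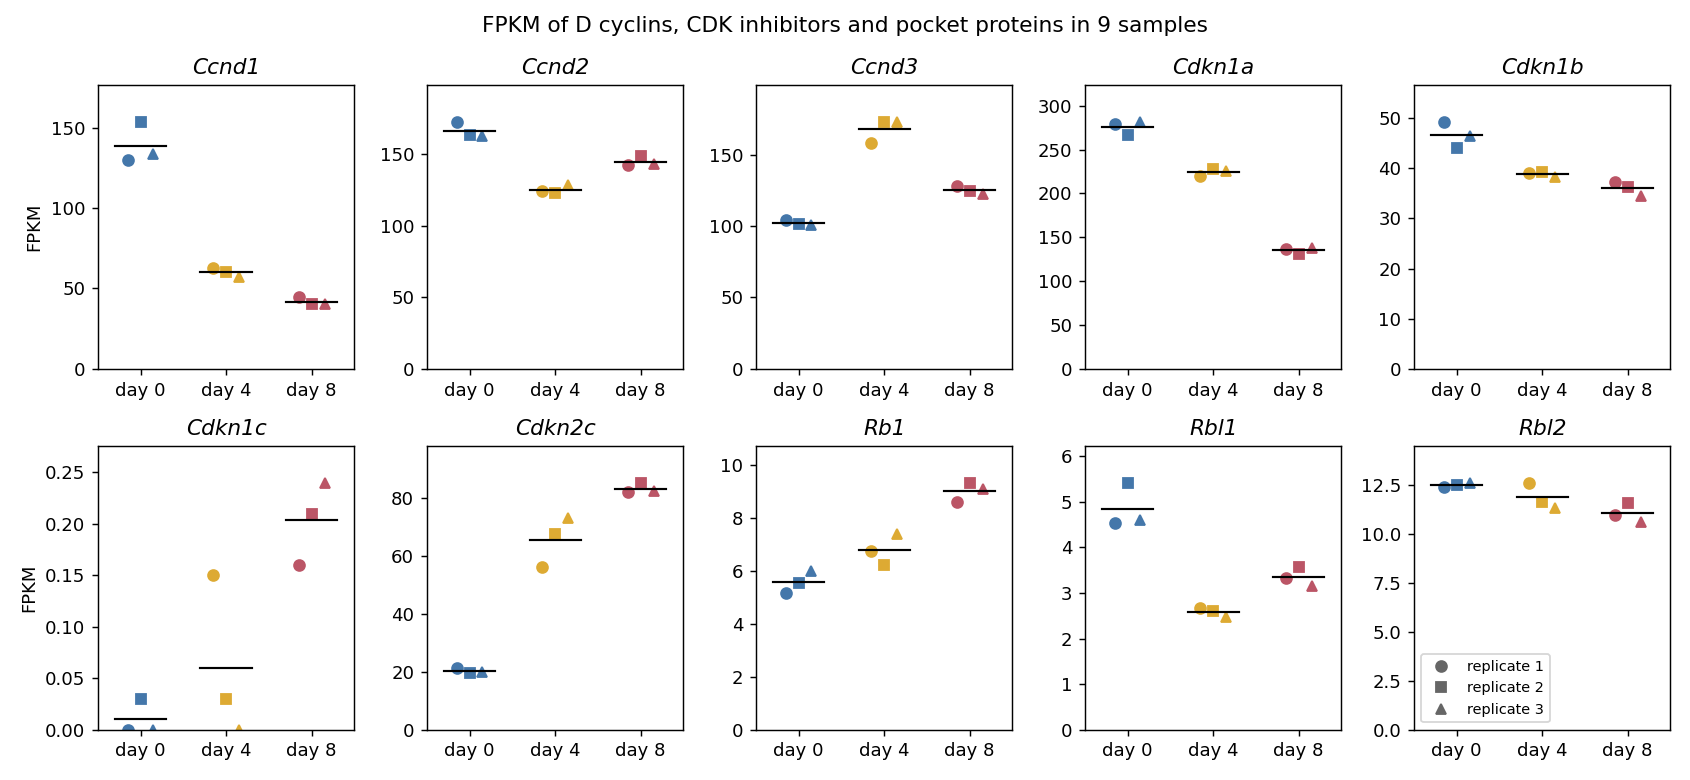
FPKM (vertical axes, each from 0) of the 10 genes at day 0, 4 and 8, with 1 point per sample, the shape giving the replicate number and the bar the mean of 3. Ccnd1 falls at each step, Cdkn2c rises at each step, Ccnd3 peaks at day 4, Rbl1 is lowest at day 4, and Cdkn1c stays under 0.25 FPKM.

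In the early phase 3 of the 9 tested genes rose (Cdkn2c, Ccnd3 and Rb1), 5 fell (Ccnd1, Rbl1, Ccnd2, Cdkn1a and Cdkn1b) and Rbl2 was not called. Of all tested genes, 69.2% were called in this phase, 35.5% higher and 33.7% lower, so a call by itself was common. Only Cdkn2c, higher, and Ccnd1, lower, were also differentially expressed, where the background was 17.8% (9.77% higher and 7.98% lower). In the late phase 4 rose (Cdkn2c, Rb1, Rbl1 and Ccnd2) and 3 fell (Cdkn1a, Ccnd1 and Ccnd3), against a background of 45.3% (22.5% higher and 22.7% lower), and 0 were differentially expressed against 7.05% (4.24% higher and 2.81% lower). Over the whole process 3 rose (Cdkn2c, Rb1 and Ccnd3), 4 fell (Ccnd1, Cdkn1a, Rbl1 and Cdkn1b) and 2 were differentially expressed (Cdkn2c and Ccnd1), against 71.0% called (34.8% higher and 36.2% lower) and 18.0% differentially expressed (10.3% higher and 7.70% lower). Without day 0 replicate 2 these counts were the same in each comparison. The median log2 fold change of the 9 genes was -0.20, -0.06 and -0.09 in the 3 comparisons, beside 0.02, -0.01 and -0.02 over all tested genes.

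**Figure D2:**
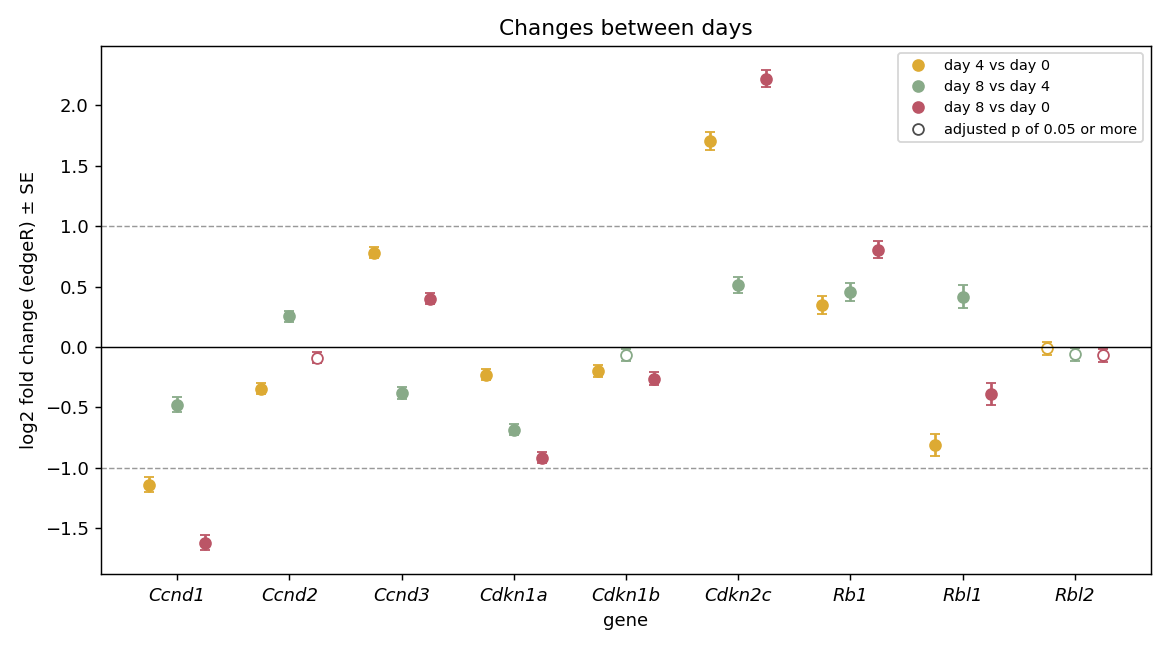
Log2 fold changes from edgeR (vertical axis) with SE bars for the 9 tested genes in the early phase, the late phase and the whole process, where open points mark an adjusted p of 0.05 or more and dashed lines a fold change of 2. Cdkn2c in the early phase and whole process lies above the upper line and Ccnd1 below the lower line, and Ccnd2, Ccnd3 and Rbl1 change direction between the phases.

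Among the D cyclins, Ccnd1, which encodes the cyclin most closely tied to growth factor signals in fibroblasts, was at 129.7, 153 and 133 at day 0, then 62.6, 60.1 and 57.4 at day 4 and 44.7, 40.2 and 40.5 at day 8 (FPKM, replicates 1 to 3). The 3 days did not overlap, and day 0 replicate 2 was the highest of all samples. Ccnd1 fell 2.21-fold in the early phase (log2 fold change -1.14 ± 0.06, adjusted p = 9.1e-11), again in the late phase (-0.48 ± 0.06, adjusted p = 1.2e-05) and 3.07-fold over the whole process (-1.62 ± 0.06, adjusted p = 1.4e-12). Without the high day 0 library the early change was still -1.07, the smallest of any setting tried.

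Ccnd2 FPKM was 172, 163 and 163 at day 0, then 124, 122.8 and 128 at day 4 and 142, 149 and 143 at day 8. The lowest values were those of day 4, and the 3 days did not overlap. Ccnd2 fell in the early phase (-0.34 ± 0.05, adjusted p = 5.5e-06) and rose in the late phase (0.25 ± 0.05, adjusted p = 2.9e-04). Its whole-process change was -0.09 ± 0.05, adjusted p = 0.091, which was not called, although all 3 day 8 samples were below all 3 day 0 samples in FPKM. Under library size alone, upper-quartile factors and limma on FPKM that change was called lower, at -0.15 to -0.20.

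Ccnd3, the D cyclin gene best known from differentiating cells and muscle, had FPKM values of 104, 102 and 101 at day 0, then 158, 173 and 173 at day 4 and 128, 125 and 122 at day 8. Unlike Ccnd2 it was highest at day 4, again with no overlap between days. Ccnd3 rose 1.72-fold in the early phase (0.78 ± 0.05, adjusted p = 3.3e-10), fell in the late phase (-0.38 ± 0.05, adjusted p = 6.1e-06) and remained 1.32-fold above day 0 at day 8 (0.40 ± 0.05, adjusted p = 1.1e-06).

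Summed, the D cyclins were at 407 ± 10.7 FPKM at day 0, then 353 ± 7.12 at day 4 and 311 ± 4.84 at day 8 (SD, n = 3). The share of Ccnd1 in the sum was 34.0% ± 2.42 at day 0, then 17.0% ± 1.08 at day 4 and 13.4% ± 0.70 at day 8. Ccnd3 held 25.1% ± 0.73, 47.5% ± 1.45 and 40.1% ± 0.47 at the same times, and Ccnd2 40.8% ± 1.70, 35.5% ± 0.78 and 46.4% ± 1.17. Ccnd3 was thus the most abundant D cyclin mRNA per length at day 4 and Ccnd2 at day 0 and day 8. These shares depend on the length of the transcripts. In the authors' counting Ccnd2 has the longest transcript length of the D cyclins, 5772 bases beside 3796 for Ccnd1 and 1992 for Ccnd3. From expected counts not divided by length, Ccnd2 held the largest share at every time (56.9%, 56.4% and 67.4%). Ccnd3 then held 11.9%, 25.8% and 19.9%.

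**Figure D3:**
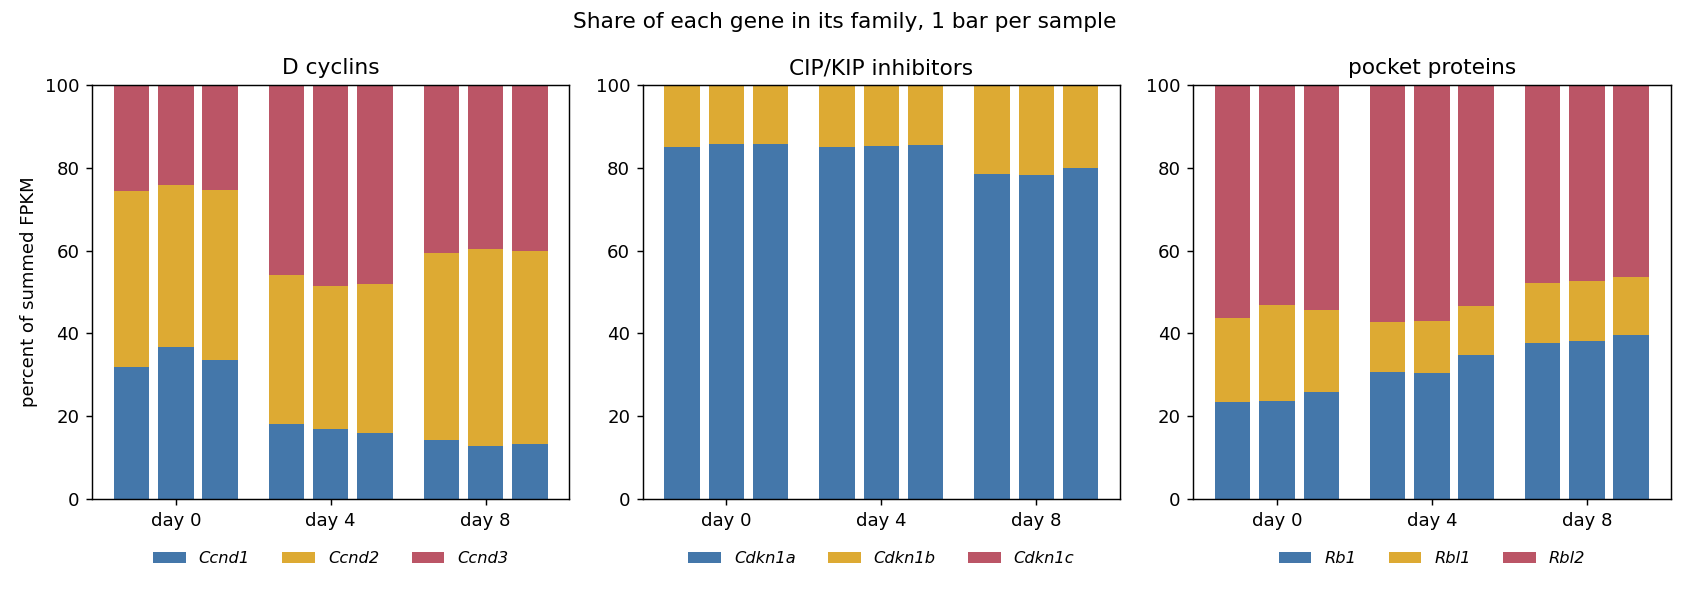
Share of each gene in the summed FPKM of the D cyclins, the CIP/KIP inhibitors and the pocket proteins (vertical axis, percent), with 1 bar per sample and 3 samples per day. The Ccnd1 share shrinks from 34.0% to 13.4% and the Rb1 share grows from 24.3% to 38.5%, while Cdkn1a keeps most of its family's sum in every sample and Cdkn1c is too small to see.

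CDK inhibitor mRNAs did not move as a group. Cdkn2c had FPKM values of 21.2, 19.6 and 19.9 at day 0, then 56.3, 67.6 and 73.0 at day 4 and 82.3, 85.3 and 82.3 at day 8. Every day 4 sample exceeded every day 0 sample, and every day 8 sample exceeded every day 4 sample, with the widest spread at day 4, where the order of the replicates was also that of the summed adipocyte markers. Cdkn2c rose 3.26-fold in the early phase (1.71 ± 0.07, adjusted p = 4.7e-12), further in the late phase (0.52 ± 0.07, adjusted p = 9.4e-06) and 4.66-fold over the whole process (2.22 ± 0.07, adjusted p = 1.8e-13), the largest change of the 9 tested genes in either direction. Mean FPKM, which is scaled to transcript length, was 65.7 at day 4 and 83.3 at day 8. Over all settings the late log2 fold change of Cdkn2c ran from 0.35 to 0.58.

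Cdkn1a, a target of p53 and the most abundant of these inhibitors, had FPKM values of 279, 266 and 281 at day 0, then 220.3, 227 and 226 at day 4 and 136, 132 and 138 at day 8. Its days did not overlap, and the mean dropped more between day 4 and day 8 than between day 0 and day 4. Cdkn1a fell in the early phase (-0.23 ± 0.05, adjusted p = 2.7e-04) and more in the late phase (-0.68 ± 0.05, adjusted p = 5.7e-09), to a 1.89-fold lower level at day 8 (-0.92 ± 0.05, adjusted p = 3.4e-11). This is close under the fold change of 2, which it passed with library size alone and with limma on FPKM (-1.02 to -1.03). Cdkn1b, whose protein is controlled largely by degradation, had FPKM values of 49.2, 44.0 and 46.5 at day 0, then 39.1, 39.2 and 38.3 at day 4 and 37.3, 36.3 and 34.5 at day 8. The 3 days did not overlap, yet the steps were small. Cdkn1b fell in the early phase (-0.20 ± 0.05, adjusted p = 0.0026) and over the whole process (-0.26 ± 0.05, adjusted p = 2.5e-04), and its late change was not called (-0.06 ± 0.05, adjusted p = 0.33).

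Cdkn1c, an imprinted gene, was close to absent. Its expected counts were 0, 1 and 0 at day 0, 6, 1 and 0 at day 4, and 6, 8 and 9 at day 8, so each day 0 library and 2 of the 3 day 4 libraries were under 3 counts, the detection floor used per library. The day 8 samples were all above the day 0 samples. Summed over libraries, 1 count at day 0 stood against 23 at day 8, a ratio of 22.6 with a 95% exact interval of 3.66 to 929.6 that covers counting error only. Cdkn1c did not enter the test. At day 8 it made up 0.12% ± 0.02 of the summed FPKM of the CIP/KIP genes, where Cdkn1a held 85.5% ± 0.46, 85.2% ± 0.30 and 78.9% ± 0.86 and Cdkn1b 14.5% ± 0.47, 14.8% ± 0.27 and 21.0% ± 0.87 at day 0, 4 and 8. Summed, the CIP/KIP genes were at 322 ± 10.3, 263 ± 3.50 and 171 ± 3.08 FPKM.

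Pocket protein mRNAs were far lower than those of the cyclins, summing to 22.9 ± 0.71, 21.2 ± 0.79 and 23.4 ± 0.94 FPKM at day 0, 4 and 8, with day 0 and day 8 overlapping. Rb1, the retinoblastoma gene, had FPKM values of 5.16, 5.54 and 5.98 at day 0, then 6.75, 6.21 and 7.38 at day 4 and 8.61, 9.32 and 9.08 at day 8. Its days did not overlap and each later day was higher. Rb1 rose in the early phase (0.35 ± 0.07, adjusted p = 5.5e-04), in the late phase (0.46 ± 0.07, adjusted p = 7.8e-05) and 1.75-fold over the whole process (0.81 ± 0.07, adjusted p = 5.4e-08). Rbl1, itself a known E2F target, had FPKM values of 4.53, 5.42 and 4.61 at day 0, then 2.66, 2.60 and 2.48 at day 4 and 3.32, 3.58 and 3.15 at day 8. Day 4 was lowest, day 8 lay between the others, and there was no overlap. Rbl1 fell 1.75-fold in the early phase (-0.81 ± 0.09, adjusted p = 7.8e-07), rose in the late phase (0.42 ± 0.09, adjusted p = 0.0018) and ended lower than at day 0 (-0.39 ± 0.09, adjusted p = 9.2e-04). Without day 0 replicate 2 its early change was -0.72. Rbl2, the pocket protein gene most associated with resting cells, had FPKM values of 12.4, 12.5 and 12.6 at day 0, then 12.6, 11.6 and 11.3 at day 4 and 10.9, 11.6 and 10.6 at day 8. Day 4 overlapped both other days. No comparison was called for Rbl2 (early -0.01 ± 0.05, adjusted p = 0.87, late -0.06 ± 0.05, adjusted p = 0.41, whole -0.07 ± 0.05, adjusted p = 0.27), though day 8 lay below day 0 in FPKM without overlap. Its whole-process change was called lower, at -0.12 to -0.18, with library size alone, upper-quartile factors and limma on FPKM. The share of Rb1 in the family went from 24.3% ± 1.35 to 31.9% ± 2.49 and 38.5% ± 1.10, that of Rbl1 from 21.2% ± 1.72 to 12.2% ± 0.51 and 14.3% ± 0.46, and that of Rbl2 from 54.6% ± 1.47 to 55.9% ± 2.09 and 47.2% ± 0.68.

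Some of these genes share exonic bases with a gene on the opposite strand in GENCODE vM21, and the strand setting of the counting is not given in the sources used here, so without strand the reads of such a pair cannot be told apart over the shared bases. Rb1 shares 8.11% of its exonic bases with Rcbtb2 and 6.78% with Lpar6. Both neighbours also rose over the whole process, Rcbtb2 from 13.3 ± 0.56 to 20.4 ± 0.58 FPKM (log2 fold change 0.73 ± 0.05, adjusted p = 1.6e-09) and Lpar6 from 3.76 ± 0.15 to 6.16 ± 0.48 FPKM (0.82 ± 0.11, adjusted p = 7.7e-06). Their levels are of the same order as that of Rb1, and their part in its change was not tested. Rbl2 shares 11.8% with Gm45464, not analysed here, and 9.17% with Aktip, which rose over the whole process (0.40 ± 0.06, adjusted p = 2.3e-05) and is more abundant (17.8 ± 0.84 and 21.9 ± 1.47 FPKM at day 0 and 8). Ccnd1 shares 23.4% with Oraov1 (Lto1), which stayed between 5.49 ± 0.17 and 6.82 ± 0.45 FPKM and so lay far below Ccnd1. Ccnd3 shares 4.11% with Bysl (11.6 ± 0.63, 14.9 ± 1.07 and 13.1 ± 0.50 FPKM at day 0, 4 and 8), and Ccnd2 shares 3.95% with Gm43126, not analysed here, and 3.91% with 9330179D12Rik, at 1.95 ± 0.42 to 2.64 ± 0.34 FPKM. Cdkn1a shares 7.68% with AC167363.2 and Cdkn1c 30.6% with the antisense gene Gm44732, neither analysed here. Cdkn1b, Cdkn2c and Rbl1 share none. Of the 50-base stretches in the transcripts of each of the 10 genes, at most 2.14% (Cdkn1a) occur in transcripts of another gene.

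Cdkn2c showed a further change that a gene-level count does not. RSEM gives each gene a transcript length averaged over its isoforms by their estimated abundance, and for Cdkn2c that mean was 1722 ± 7.40 bases at day 0, then 1656 ± 26.4 at day 4 and 1802 ± 17.5 at day 8 (SD, n = 3). The ranges, 1714 to 1728, 1634 to 1685 and 1786 to 1821, did not overlap. The edgeR changes are of expected counts, which are not scaled to this length. The part of the longer day 8 length in the late rise of Cdkn2c was not tested. Mean lengths also varied in other genes. For Cdkn1a the 3 days did not overlap either, but the means were within 1914 to 1916, and for Rbl1 single samples ran from 4430 to 4668 bases with the days overlapping. Rbl2 and Ccnd3 varied within overlapping ranges too. Of the RefSeq transcripts of Cdkn2c, 2 had a match in GENCODE vM21, of 2471 and 1106 bases, and any without a match are not seen here. RefSeq promoters give 2 start sites 1384 bases apart, the longer transcript starting at the upstream one. The isoform levels themselves are not analysed here. The 250 bases before each start site, both on the minus strand of RefSeq's GRCm38.p6 (upstream start chr4:109666757-109667006, downstream start chr4:109665373-109665622), are printed because they differ in composition, at 77.2% and 42.8% GC.
Cdkn2c upstream start: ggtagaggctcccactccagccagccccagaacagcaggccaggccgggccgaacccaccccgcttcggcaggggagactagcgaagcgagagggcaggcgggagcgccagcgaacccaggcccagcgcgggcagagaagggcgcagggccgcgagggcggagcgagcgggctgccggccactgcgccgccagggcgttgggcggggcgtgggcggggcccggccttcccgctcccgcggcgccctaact
Cdkn2c downstream start: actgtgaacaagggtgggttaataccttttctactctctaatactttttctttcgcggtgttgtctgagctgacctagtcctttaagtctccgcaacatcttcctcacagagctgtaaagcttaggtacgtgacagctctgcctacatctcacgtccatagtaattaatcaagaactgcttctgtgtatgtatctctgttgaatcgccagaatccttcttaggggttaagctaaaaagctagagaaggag

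RefSeq promoters were found for 6 of the 10 genes (Ccnd3, Cdkn1a, Cdkn1b, Cdkn2c, Rbl1 and Rbl2), and entries for Ccnd1, Ccnd2, Cdkn1c and Rb1 were missing. The 250 bases before each start were searched on both strands for 4 kinds of motif: the E2F letters TTTCCCGC, TTTCGCGC, TTTGCCGC or TTTGGCGC, the cell cycle homology region (CHR) letters TTTGAA, a pair of p53 core letters CATGNNNNNNCATG, and the E-box CACGTG. An exact E2F match was present in Rbl1 (bases 18 to 11 before the start), as in 1.86% of 32851 promoters. The upstream Cdkn1a start held the p53 pair (bases 48 to 35), as did 0.490% of promoters, and Rbl2 held a CHR match on the opposite strand (bases 201 to 196), as did 16.0%. The E-box, present in 6.02% of promoters, was in none of the 6. A match is a description of letters and not of binding. Rbl1 (chr2:157204535-157204784, minus strand) and the upstream start of Cdkn1a (chr17:29090729-29090978, plus strand) are printed because they held the only E2F and p53 matches among the 6 genes, with the match in capitals.
Rbl1: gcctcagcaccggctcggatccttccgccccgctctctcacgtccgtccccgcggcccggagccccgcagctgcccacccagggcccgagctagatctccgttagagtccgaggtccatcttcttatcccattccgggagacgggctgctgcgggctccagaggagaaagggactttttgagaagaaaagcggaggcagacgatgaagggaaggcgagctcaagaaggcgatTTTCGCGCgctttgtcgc
Cdkn1a upstream start: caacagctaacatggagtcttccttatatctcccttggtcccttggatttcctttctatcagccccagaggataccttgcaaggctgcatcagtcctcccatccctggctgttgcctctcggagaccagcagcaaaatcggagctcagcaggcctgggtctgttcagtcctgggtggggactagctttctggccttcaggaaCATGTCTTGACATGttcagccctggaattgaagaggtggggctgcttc

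The other INK4 genes moved in both directions. Cdkn2a, the gene of p16 and p19ARF, had FPKM values of 351, 362 and 383 at day 0, then 307, 317 and 312 at day 4 and 292, 271 and 264 at day 8, higher than every one of the 10 genes, and fell in each comparison (whole process -0.30 ± 0.05, adjusted p = 4.8e-05). Cdkn2b fell in the early phase, from 82.9 ± 2.87 to 50.4 ± 2.41 FPKM (-0.65 ± 0.05, adjusted p = 1.7e-08), and its level of 53.7 ± 2.88 FPKM at day 8 was higher than at day 4, short of the threshold (late 0.14 ± 0.05, adjusted p = 0.053). Cdkn2d rose in both phases, from 10.2 ± 0.85 to 12.8 ± 0.36 and 16.1 ± 0.50 FPKM (whole process 0.77 ± 0.08, adjusted p = 2.1e-07), so over the whole process Cdkn2c and Cdkn2d were the INK4 genes that rose and Cdkn2a and Cdkn2b those that fell. Leaving out day 0 replicate 2, 2 of these 3 other INK4 genes were called higher in the late phase in place of 1. Of all tested genes, 22.5% were called higher in the late phase. Over the whole process 34.8% were called higher and 36.2% lower.

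Of 10 CDKs and later cyclins, 1 rose and 3 fell in the early phase, and 4 rose and 4 fell over the whole process. In these comparisons 0 were differentially expressed, and the medians were 0.05 and 0.07. Over all tested genes 35.5% higher and 33.7% lower were called in the early phase and 34.8% higher and 36.2% lower over the whole process. The shares differentially expressed were 17.8% and 18.0%. Without day 0 replicate 2, 3 rose in place of 1 in the early phase. Cdk4, Cdk6, Cdk2 and Ccna2 are named here after their values were seen. Cdk4, the main catalytic partner of the D cyclins, was at 326 ± 10.6, 225 ± 3.54 and 221 ± 9.88 FPKM and fell in the early phase (-0.47 ± 0.05, adjusted p = 1.3e-07). Its late change was not called (0.01 ± 0.05, adjusted p = 0.82). Cdk6, at 8.52 ± 0.18, 7.24 ± 0.21 and 4.22 ± 0.32 FPKM, fell mostly in the late phase (-0.73 ± 0.05, adjusted p = 1.9e-08). Cdk2 was not called in any comparison (whole process 0.05 ± 0.07, adjusted p = 0.49). Ccna2, the cyclin of S phase, fell in the early phase (-0.88 ± 0.10, adjusted p = 1.4e-06).

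Genes downstream of the pocket proteins fell together in the early phase. Of 15 E2F target genes of DNA replication, 13 fell and 0 rose, with a median log2 fold change of -0.58, and of 15 mitosis genes 15 fell, 7 of them differentially expressed, with a median of -0.92. Over all tested genes 33.7% were called lower in this phase and 7.98% were differentially expressed lower. The polymerase gene Pola1 fell most in the first list (5.16, 6.47 and 5.71 FPKM at day 0 and 2.25, 2.03 and 2.57 at day 4, -1.27 ± 0.11, adjusted p = 4.6e-08). In the second, the kinesin gene Kif23 changed by -1.74 ± 0.13, adjusted p = 3.8e-09, the spindle checkpoint genes Bub1b and Bub1 by -1.33 ± 0.10, adjusted p = 3.3e-09 and -1.20 ± 0.13, adjusted p = 5.8e-07, and the proliferation marker Mki67, with FPKM values of 9.87, 14.2 and 9.56 at day 0, then 4.31, 3.83 and 4.69 at day 4 and 4.93, 4.95 and 4.42 at day 8, by -1.32 ± 0.12, adjusted p = 3.7e-08. In the late phase 5 replication genes and 4 mitosis genes rose and 0 fell, with medians of 0.17 for both lists and 0 differentially expressed. Over all tested genes 22.5% were called higher in the late phase. In that phase 7 replication and 6 mitosis genes rose without day 0 replicate 2. Over the whole process 11 of 15 replication genes fell and 1, the thymidine kinase gene Tk1, named after its values were seen, rose (0.37 ± 0.15, adjusted p = 0.033), and 14 of 15 mitosis genes fell and 0 rose, with medians of -0.50 and -0.76, where 34.8% higher and 36.2% lower were called over all tested genes. The centromere gene Cenpf was among the 4 mitosis genes differentially expressed over the whole process (-1.17 ± 0.13, adjusted p = 5.8e-07). All 4 were lower, where 7.70% of all tested genes were differentially expressed lower. Without day 0 replicate 2 this count was 3. The falls were smaller without day 0 replicate 2. Then 11 replication and 14 mitosis genes fell in the early phase, with medians of -0.48 and -0.76, and 4 mitosis genes in place of 7 were differentially expressed.

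Of 10 E2F and DP genes, 2 rose and 2 fell in the early phase (median 0.01), where 35.5% higher and 33.7% lower were called over all tested genes, and 4 rose and 3 fell over the whole process (median 0.11), where 34.8% higher and 36.2% lower were called. Without day 0 replicate 2, 1 rose and 2 fell in the early phase, 1 of them differentially expressed in place of 2, and 3 rose and 3 fell over the whole process. Both that fell in the early phase are the atypical repressors, E2f7 (FPKM of 1.73, 3.08 and 1.95 at day 0, then 0.56, 0.65 and 0.45 at day 4 and 0.89, 0.86 and 0.68 at day 8, early -1.95 ± 0.20, adjusted p = 3.2e-07) and E2f8 (early -1.002 ± 0.14, adjusted p = 7.8e-06). Among 7 genes of the MuvB core, which joins Rbl2 or Rbl1 in a repressor complex, and its partners, 1 rose and 4 fell in the early phase (median -0.17), and 2 rose and 4 fell over the whole process, beside the same shares over all tested genes. Mybl2, the activating partner of MuvB, was the only one differentially expressed in the early phase (3.82, 5.50 and 3.86 FPKM at day 0 and 1.70, 1.84 and 1.80 at day 4, -1.23 ± 0.15, adjusted p = 1.4e-06).

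**Figure D4:**
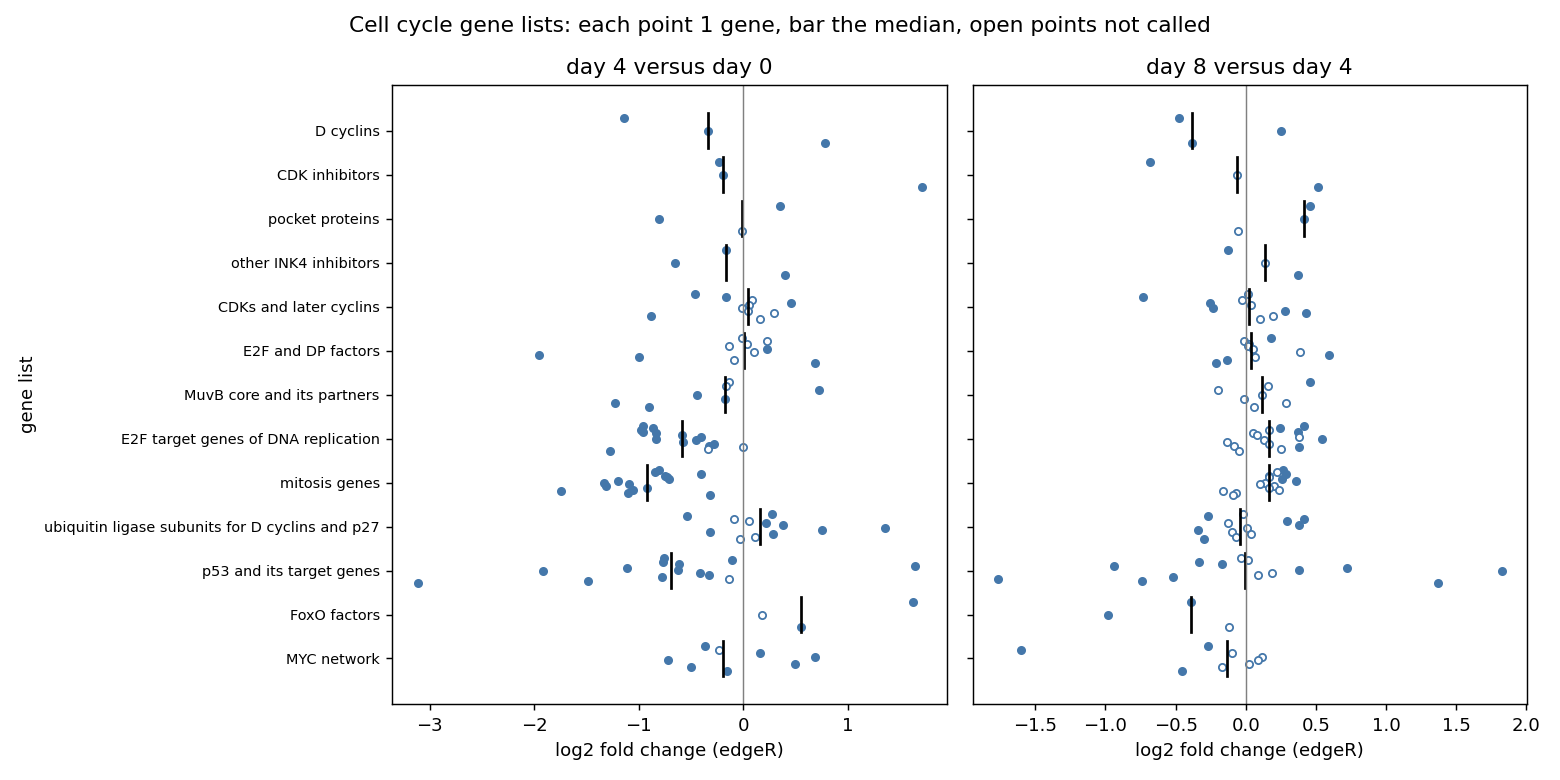
Log2 fold changes from edgeR (horizontal axes) in the early and the late phase for the genes of 13 lists, where each point is 1 tested gene, open points were not called and the black bar is the median of the list. Mitosis genes lie wholly to the left of 0 in the early phase (median -0.92) and close to 0 in the late phase (median 0.17), while the D cyclins, CDK inhibitors and pocket proteins spread to both sides.

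Regulators of the inhibitors and cyclins were mixed. Of 12 ubiquitin ligase subunits for D cyclins and p27, 6 rose and 2 fell in the early phase (median 0.16), and 7 rose and 3 fell over the whole process (median 0.29), where over all tested genes 35.5% higher and 33.7% lower and then 34.8% higher and 36.2% lower were called. Only Fbxo31, an F-box gene acting on cyclin D1, was differentially expressed, at the very low level of 0.20, 0.16 and 0.21 FPKM at day 0 and 0.37, 0.51 and 0.53 at day 4 (early 1.35 ± 0.25, adjusted p = 1.4e-04). Skp2, the F-box gene that targets p27 and is named here after its values were seen, fell in both phases, from 9.48 ± 1.22 to 6.21 ± 0.03 and 4.98 ± 0.33 FPKM (whole process -0.81 ± 0.08, adjusted p = 2.6e-07).

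In the list of p53 and its target genes, 12 of 14 fell and 1 rose in the early phase (median -0.69), 6 fell and 4 rose in the late phase (median -0.01), and 10 fell and 1 rose over the whole process (median -0.59). The shares called over all tested genes were 35.5% higher and 33.7% lower, 22.5% higher and 22.7% lower, and 34.8% higher and 36.2% lower in the 3 comparisons. Cdkn1a, itself a p53 target and not in this list, fell by 0.23 and 0.68 on the log2 scale in the early and the late phase. Plk2, a stress-induced kinase gene, had FPKM values of 107, 116 and 116 at day 0, then 13.9, 11.8 and 11.6 at day 4 and 32.9, 29.9 and 30.9 at day 8 and changed by -3.12 ± 0.07, adjusted p = 1.3e-15 and then 1.37 ± 0.07, adjusted p = 1.3e-10. Gadd45a, a growth arrest gene, had FPKM values of 54.6, 50.3 and 53 at day 0, then 13.5, 14.4 and 12 at day 4 and 45.0, 44.5 and 47.8 at day 8, falling in the early phase (-1.92 ± 0.07, adjusted p = 1.1e-12) and rising in the late phase (1.83 ± 0.07, adjusted p = 1.2e-11). Sesn1 did the reverse, with changes of 1.65 ± 0.06, adjusted p = 1.7e-12 and -0.94 ± 0.06, adjusted p = 4.5e-09. Eda2r, a receptor gene, fell in both phases (whole process -2.22 ± 0.09, adjusted p = 4.2e-12), Zmat3 fell by 1.30 on the log2 scale over the whole process, and Trp53inp1 was not called in the early phase and fell in the late phase (-1.77 ± 0.08, adjusted p = 2.9e-11). Trp53 itself, named after its values were seen, went from 122 ± 3.44 to 68.5 ± 2.38 FPKM in the early phase (-0.76 ± 0.05, adjusted p = 1.7e-09). Without day 0 replicate 2 the list's early count was the same, 12 lower and 1 higher.

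For the lists that follow, the shares called over all tested genes were 35.5% higher and 33.7% lower in the early phase and 34.8% higher and 36.2% lower over the whole process. The FoxO factors, which activate Cdkn1b and Rbl2 in other cells, gave 2 rises in the early phase. Foxo1 had FPKM values of 7.22, 7.49 and 7.33 at day 0, then 21.2, 22.3 and 21.2 at day 4 and 15.2, 17.0 and 15.7 at day 8 (early 1.62 ± 0.05, adjusted p = 2.4e-13, late -0.39 ± 0.05, adjusted p = 1.1e-05), Foxo4 rose in the early phase (0.56 ± 0.07, adjusted p = 1.5e-06), and Foxo3 fell in the late phase (-0.98 ± 0.09, adjusted p = 1.2e-07). In the MYC network, whose members control Ccnd2 and Cdkn1a in other cells, 3 of 8 tested genes rose and 4 fell in the early phase (median -0.20), and 2 rose and 5 fell over the whole process (median -0.62). The early counts without day 0 replicate 2 were 2 higher and 4 lower. Only Mycl was differentially expressed (late -1.60 ± 0.62, adjusted p = 0.044, whole process -1.84 ± 0.59, adjusted p = 0.011), at no more than 0.23 FPKM in any sample. Its day 4 and day 8 samples overlapped in FPKM. Mycn was not analysed here. Of the genes near Cdkn1c in its imprinted region, 3 of 6 tested rose and 0 fell in the early phase, and without day 0 replicate 2, 2 rose and 1 fell. Over the whole process 4 rose and 1 fell, and without that library 3 rose and 1 fell. Igf2 rose from 2.52 ± 0.17 to 12.7 ± 1.65 and 65.2 ± 9.13 FPKM (whole process 4.67 ± 0.11, adjusted p = 4.9e-15), but 61.2% of its 50-base stretches occur in transcripts of another gene, so its count is uncertain. H19 rose in the late phase, from 1.00 ± 0.32 to 3.98 ± 0.50 FPKM (2.03 ± 0.19, adjusted p = 2.4e-07).

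Genes with the most similar profiles were found for each of the 9 tested genes by the smallest root mean square difference in centred log2 CPM over the 9 samples, among 11466 genes whose log2 CPM averaged 1 or more. The 9 samples form 3 days, so many genes can share a profile. Nearest to Ccnd1 were Sox9 (difference 0.071) and Utp20 (0.075), to Ccnd2 Ccdc6 (0.033) and Sp3 (0.038), and to Ccnd3 Dhodh (0.036) and Gpsm1 (0.038). For Cdkn1a they were Pfkfb2 (0.060) and Tfap4 (0.064), and for Cdkn1b Ppp2r3d (0.032) and Phrf1 (0.034). Cdkn2c was nearest to Scp2 (0.066) and Hadhb (0.072), whose proteins act on lipids and fatty acids and whose mean FPKM went from 30.2 to 99.2 and 125 and from 25.3 to 75.4 and 100.3 at day 0, 4 and 8. Rb1 was nearest to Ugp2 (0.068) and Has2 (0.075), Rbl1 to Zranb3 (0.068) and Tcf20 (0.069), and Rbl2 to Slc35b4 (0.030) and Lrsam1 (0.036). Each pair differed in level, as Sox9 did from Ccnd1 with 58.9, 27.1 and 18.9 FPKM at day 0, 4 and 8.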

How the data were processed

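The 9 RNA-seq libraries of 3T3-L1 cells, 3 from each of day 0, 4 and 8, were used, grouped by the day in the sample titles. Per the methods of the study, reads were cleaned, mapped with HISAT/Bowtie2 and quantified with RSEM, and the submitters' processing notes name CASAVA 1.4 and Bowtie2. The genome build is not given in the sources used here, and the labels name a library kit for another sequencer than the methods. The authors deposited RSEM expected counts, which are not normalized (29.8% are not whole numbers), FPKM, scaled by the authors to length and depth, and mean transcript lengths.

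Expected counts were rounded and tested with edgeR 4.0.16 under R 4.3.3 (TMM factors, filterByExpr by day, glmQLFit and glmQLFTest, 1 coefficient per day, all 9 samples). The SE is the log2 fold change divided by the square root of F. The depth was 18216114 to 20452144 expected counts, and intervals cover counting error only. On simulated data with 200 changed genes among 13154 in the early comparison, the test recovered 195 and called 0 unchanged genes. A call there also needed a fold change above 2, and every planted change was larger than that. The simulation therefore does not check the smaller changes that were called by adjusted p alone. The 10 genes and all lists were chosen with earlier results of these data known. Named were the 10 genes, up to 4 differentially expressed genes with the largest fold changes per list and comparison, every gene of lists of 3 or fewer, the 2 most similar genes, and cell type markers. Some markers are not reported here by name. Genes outside this rule are said to be chosen after their values were seen, except those named with a shared exon. Alternatives were other normalizations, edgeR's exact test, DESeq2 1.42.0, limma 3.58.1 on log2(FPKM + 1) and log2(FPKM + 0.1), other filters, separate models, a replicate block and leaving out each sample. Promoters are from RefSeq (GRCm38.p6), and shared exons and stretches from GENCODE vM21.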

Additional observations from a re-analysis of the deposited data

How the results depend on the processing

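Of 540 recomputed log2 fold changes of the 9 tested genes (27 changes under 20 alternatives), 531 kept their direction and side of the threshold, and 8 became called. These 8 were the whole-process falls of Ccnd2 (-0.15, -0.20, -0.20 and -0.20) and Rbl2 (-0.12, -0.18, -0.16 and -0.18) with upper-quartile factors, library size alone, limma on log2(FPKM + 1) and limma on log2(FPKM + 0.1). One uncalled value changed sign, the early change of Rbl2 without day 4 replicate 3 (0.0244, adjusted p = 0.71), within -0.0526 to 0.0244 when 1 sample was left out. With those 4 settings 6 of the 9 genes fell over the whole process in place of 4, and library size alone moved the median of all genes to -0.13. With no filter Cdkn1c entered and was called higher over the whole process, 4 genes rising in place of 3. The early and late counts of the 10 genes were the same under every alternative.

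Counts of differentially expressed genes moved by more than 1.5 times with limma on log2(FPKM + 1), to 708 higher and 565 lower in the early phase, 224 and 136 in the late phase, and 753 and 528 over the whole process. A minimum of 10 counts in every sample, which leaves 11799 genes, gave 831 higher in the early phase and 310 higher and 173 lower in the late phase. Leaving out 1 sample gave 1262 to 1347 higher and 1036 to 1154 lower in the early phase. The replicate block gave 1287 higher and 1053 lower in the early phase and changed no call of the 10 genes. In their deviations from the day means, same-numbered samples correlated at 0.03 on average (-0.03 to 0.07) and other pairs at -0.02. Of 9 samples, 6 correlated best with their own number. These correlations were weak and do not exclude a pairing. The samples were not treated as paired in the main fit, and the replicate block gives the paired fit.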
